A study of Mus musculus with 4 samples.

Results

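Haemoglobin is built from pairs of alpha-like and beta-like globin chains, and the 7 mouse globin genes described here encode those chains. They were chosen by symbol among the 27998 genes of the deposited tables: the beta-like genes Hbb-y and Hbb-bh1 (embryonic) and Hbb-bs and Hbb-bt (adult), and the alpha-like genes Hba-x (the embryonic zeta chain) and Hba-a1 and Hba-a2 (the alpha chains used from the embryo to the adult). All 7 were found. Cells were sorted into globin cells, in which at least 5% of the UMIs (unique molecular identifiers, each counting 1 captured transcript) came from these genes, and other cells. The globin level of the other cells is given over all of them and, as the background of their library, over those without erythroid or megakaryocyte markers. The question was how the share of each globin differed between stages in the globin cells, and what level the background reached.

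In the mouse, the first red cells arise in the yolk sac as a primitive wave that matures while circulating and still holds a nucleus, and a definitive wave follows from the liver and later the marrow. Primitive red cells are known to exchange embryonic globins as they mature: Hbb-bh1 gives way to Hbb-y, and Hba-x to Hba-a1 and Hba-a2. Adult beta-globins dominate in definitive red cells. The beta-like and alpha-like genes lie in separate clusters, each with its embryonic gene first in the direction of transcription.

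Single cells of the Mesp1 lineage were profiled in 4 libraries of Swiss Webster embryos, 1 per stage, named E8.0, E8.25, E9.5 or E10.5 after the embryonic day. Every embryo was Mesp1Cre;Rosa26-GFPflox/+, so Cre made from the Mesp1 gene of the early mesoderm turned on a GFP reporter for good in those cells and their descendants, including red cells, and no mutant or untreated control belonged to these libraries. Living GFP-positive cells of pooled embryos were sorted, the 2 earlier libraries holding the rostral part of the body and the 2 later ones the pharyngeal apparatus plus heart, so that tissue and stage cannot be told apart, and blood was present only as far as it was carried along in the dissection. With 1 library per stage there is no replicate, no test between stages was possible, and the 95% intervals below (exact binomial for shares, exact Poisson for levels) cover counting error only.

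After filtering, the libraries held 7118, 2884, 3921 and 7525 cells in the order of stage, with medians between 15205 and 35216 UMIs per cell. Levels are given as CPM (counts per 1000000 UMIs), for globins over all UMIs and for other genes over the non-globin UMIs. Each pair of libraries shared between 16 and 88 cell barcodes. The E8.25 library was the deepest per cell and stood apart for Hba-a2, and the E9.5 library held almost no globin cells, as described beside the results they touch.

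The beta-like genes lie on chromosome 7 on the minus strand (RefSeq, GRCm38.p6), with Hbb-y at chr7:103851754-103853207, Hbb-bh1 at chr7:103841638-103843162, Hbb-bs at chr7:103826523-103827928 and Hbb-bt at chr7:103812524-103813923. The alpha-like genes lie on chromosome 11 on the plus strand, with Hba-x at chr11:32276600-32278116, Hba-a1 at chr11:32283672-32284486 and Hba-a2 at chr11:32296492-32297310. RefSeq promoter sequences were matched for 6 of the 7 genes, and Hbb-bh1 is named only. The 120 bases just before the annotated start of 5 promoters are shown, 5' to 3' on the strand of the gene, because they stand for the embryonic and adult chains whose shares are compared across the libraries. Capitals mark CACCC and CCAAT, and also GATAA as well as TATAA, on either strand.
Hbb-y: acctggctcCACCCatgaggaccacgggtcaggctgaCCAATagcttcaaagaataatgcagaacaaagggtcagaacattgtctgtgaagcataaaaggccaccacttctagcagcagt
Hbb-bs: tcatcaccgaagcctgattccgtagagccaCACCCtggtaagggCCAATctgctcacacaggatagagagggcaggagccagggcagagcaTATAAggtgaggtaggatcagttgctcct
Hbb-bt: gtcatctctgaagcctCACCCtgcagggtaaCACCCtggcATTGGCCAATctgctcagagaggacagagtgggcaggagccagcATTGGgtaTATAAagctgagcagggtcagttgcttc
Hba-x: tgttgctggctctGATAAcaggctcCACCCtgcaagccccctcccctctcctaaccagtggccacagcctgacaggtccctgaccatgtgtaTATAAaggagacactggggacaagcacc
Hba-a1: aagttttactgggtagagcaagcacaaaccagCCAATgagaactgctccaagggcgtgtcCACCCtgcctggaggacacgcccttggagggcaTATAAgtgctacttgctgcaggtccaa

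These windows are chr7:103853208-103853327 for Hbb-y, chr7:103827929-103828048 for Hbb-bs, chr7:103813924-103814043 for Hbb-bt, chr11:32276480-32276599 for Hba-x and chr11:32283552-32283671 for Hba-a1. The Hba-a2 promoter carried the same bases as that of Hba-a1, with 0 mismatches over 247 aligned positions. CACCC, the core of the sequence bound by Krüppel-like factors, was found in 6 of the 6 windows of 120 bases and in 31.7% of the windows of all 32851 promoters. CCAAT was found in 5 of the 6 and in 21.3% of all promoters, and Hba-x was the one without it. TATAA was found in 5 of the 6 and in 11.8% of all, and Hbb-y was the one without it. GATAA, read by GATA factors, was found in the 120 bases of Hba-x alone, and in 6 of the 6 once the window was extended to 250 bases, against 22.6% of all promoters at that length. In Hbb-bt an inverted CCAAT was followed directly by a second CCAAT, with no overlap. These matches describe the letters only, and binding was not measured.

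Globin cells were 67 of 7118 in the E8.0 library (0.941%, interval 0.730 to 1.19%) and 315 of 2884 in the E8.25 library (10.9%, 9.81 to 12.1%). There were only 4 of 3921 in the E9.5 library (0.102%, 0.0278 to 0.261%) and 1026 of 7525 in the E10.5 library (13.6%, 12.9 to 14.4%). In these cells the globins took a median of 5.85% of the UMIs of a cell in the E8.0 library (range 5.0004 to 9.44%), 11.2% in the E8.25 library (5.39 to 18.8%), 10.9% in the 4 E9.5 cells (6.72 to 26.0%) and 46.1% in the E10.5 library (5.24 to 79.2%). The E10.5 cells therefore carried far more globin per UMI than those of the earlier libraries, and 906 of them exceeded 40%, a level that no cell of the other libraries reached. The gate divided these populations differently. At E8.0 it ran through the middle of the red cells, with 34 cells between 4 and 5% and 40 between 5 and 6%, whereas at E8.25 only 2 cells lay between 4 and 5% and 1 between 5 and 6%. The nearest cells below and above the gate held 4.99% and 5.0004% in the E8.0 library, 4.99% and 5.39% in E8.25, 2.45% and 6.72% in E9.5, and 4.96% and 5.24% in E10.5.

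**Figure D1:**
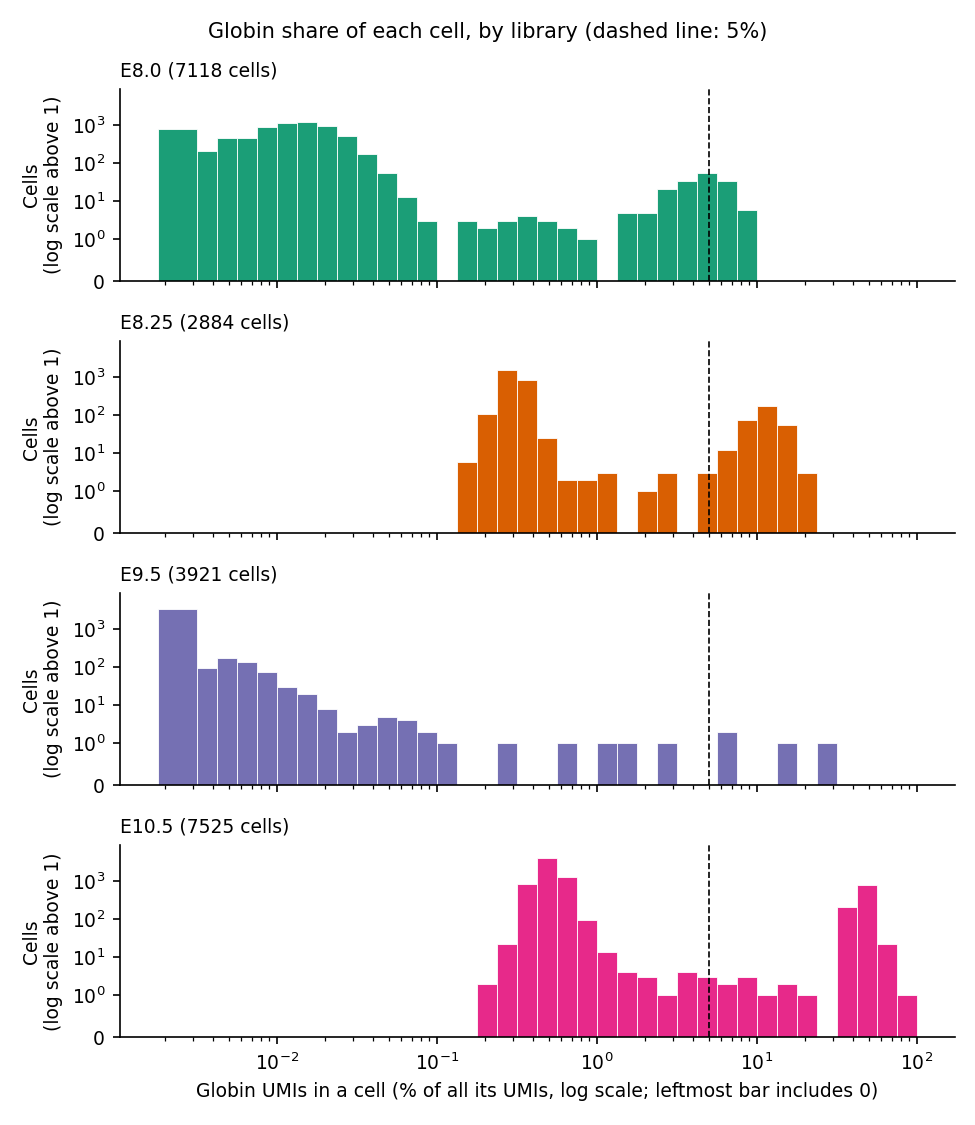
Number of cells (log scale above 1) by the globin share of their UMIs (%, log scale), in each of the 4 libraries; the dashed line marks the 5% gate. At E8.25 and E10.5 few cells (9 and 28 between 1 and 5%) lie between the background, which is above 0.1%, and the globin cells (medians 11.2% and 46.1%). At E8.0 the gate crosses the upper group, and at E9.5 only 4 cells lie above it.

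The identity of the globin cells was checked against erythroid markers. Of 9 markers measured, among them Gata1, Klf1, Epor, Alas2 and Nfe2, at least 4 were detected in 67 of 67, 315 of 315, 4 of 4 and 1021 of 1026 globin cells in the order of stage. Their summed level was 1436, 2184, 2343 and 5259 CPM, against 9.28 to 44.9 in the other cells. Markers of endothelium and cardiomyocytes were lower in globin cells than in other cells at E8.0, E8.25 and E10.5 (36.7 to 119 against 166 to 236 CPM for 6 endothelial markers; 72.4 to 110 against 439 to 1473 for 6 cardiomyocyte markers), with no marker of either list at 0 in these 3 libraries. Macrophage markers summed to 1.14 to 10.98 CPM in these 3 libraries and to 184 in the 4 E9.5 cells, with 4 of 6 at 0 at E8.0, 3 of 6 at E8.25 and none at E10.5. The summed megakaryocyte markers were higher in globin cells than in other cells at E8.0 (31.9 against 3.99 CPM) and E8.25 (24.7 against 4.95). They were lower at E10.5 (32.4 against 186), with 2, 1 and none of the 6 at 0 in the globin cells of these libraries. In globin cells, 1 marker alone gave 30.0 of the 31.9 CPM at E8.0 and 21.9 of the 24.7 at E8.25. The higher sums there thus do not describe the list as a whole. At E9.5 the markers summed to 5544 in the globin cells against 166 in the other cells. There 2 of the 4 globin cells carried at least 4 of the 6 megakaryocyte markers (Pf4, Itga2b, Gp9, Ppbp, Gp1bb and Plek). The E9.5 globin cells were therefore described one by one. Their summed levels are printed in the series by stage but rest on 4 cells, of which 1 gives 13024 of the 18993 globin UMIs, and no fold or log2 difference between stages uses them. Their part in the E9.5 sums was not tested.

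The beta-like pool passed from Hbb-bh1 to Hbb-y. Hbb-bh1 gave 93.2% of the beta-like UMIs of globin cells at E8.0 (interval 93.0 to 93.3%), 78.6% at E8.25 (78.5 to 78.6%) and 25.2% at E10.5 (25.2 to 25.2%). Hbb-y gave 5.83% (5.66 to 5.999%), 20.3% (20.2 to 20.3%) and 74.2% (74.2 to 74.2%) at the same stages. The ratio of Hbb-bh1 to Hbb-y UMIs was thus 16.0 at E8.0, 3.88 at E8.25 and 0.340 at E10.5, a log2 difference of -5.56 between E10.5 and E8.0 (interval -5.60 to -5.51), of which -2.04 lay between E8.0 and E8.25 and -3.51 between E8.25 and E10.5.

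The same order was seen in single cells. The share of Hbb-y among the beta-like UMIs of a cell had a median of 0.399% at E8.0 (range 0 to 59.5%), 15.2% at E8.25 (0.558 to 55.8%) and 73.9% at E10.5 (62.1 to 96.4%). No E10.5 cell overlapped the cells of the E8.0 and E8.25 libraries, while E8.0 and E8.25 overlapped over most of their range. Among the 4 E9.5 globin cells this share ran from 0.178 to 85.4%, with a median of 39.0%. The lowest lay within the E8.0 range and the highest, in a cell with megakaryocyte markers, within the E10.5 range. Hbb-y exceeded Hbb-bh1 in 1 of 67 cells at E8.0, 3 of 315 at E8.25 and 1026 of 1026 at E10.5. Hbb-bh1 itself was detected in every globin cell, whereas Hbb-y was detected in 53 of 67 at E8.0 and in all of them at E8.25 and E10.5.

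Levels in CPM show which gene moved. In the order of stage, Hbb-y stood at 1848, 11092, 53450 and 230349 CPM, which was 125-fold higher in the last library than in the first (interval 121 to 128). Hbb-bh1 stood at 29557, 42999.9, 44266 and 78223 CPM, 2.65-fold higher in the last (2.63 to 2.67). The level of Hbb-bh1 was therefore not lower in the later libraries although its share was, and the exchange in shares came with a far larger difference in Hbb-y. These counts come from 3' ends, so 1 transcript gives 1 UMI whatever its length and no length correction was applied, but how well each globin is captured was not measured.

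The alpha-like pool moved less. Hba-x gave 80.1% of the alpha-like UMIs at E8.0 (interval 79.8 to 80.4%), 63.3% at E8.25 (63.2 to 63.4%) and 53.7% at E10.5 (53.6 to 53.7%), with Hba-a1 and Hba-a2 making up the rest. The ratio of Hba-x to Hba-a1 plus Hba-a2 was 4.03, 1.72 and 1.16, a log2 difference of -1.80 between E10.5 and E8.0 (interval -1.83 to -1.77). Unlike the beta-like exchange, the larger part of this difference, -1.23, lay between E8.0 and E8.25, and -0.57 between E8.25 and E10.5. In single cells the share of Hba-x had a median of 80.7% at E8.0 (range 69.0 to 87.9%), 64.0% at E8.25 (49.1 to 83.4%) and 53.7% at E10.5 (15.1 to 64.2%). Cells at E8.0 and E10.5 did not overlap, and those at E8.25 overlapped both. Hba-x still exceeded Hba-a1 plus Hba-a2 in 67 of 67, 313 of 315 and 829 of 1026 cells, the last being 80.8%, while Hbb-y exceeded Hbb-bh1 in every E10.5 cell. Reads shared by the near-identical Hba-a1 and Hba-a2 copies are not counted, and at an Hba-x share of 53.7% such a loss could turn which side is larger at E10.5. Its size was not measured, and whether it differed between libraries was not tested. The parts of -1.23 and -0.57 both use the E8.25 library, which stood apart for Hba-a2, so this split depends on that library.

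**Figure D2:**
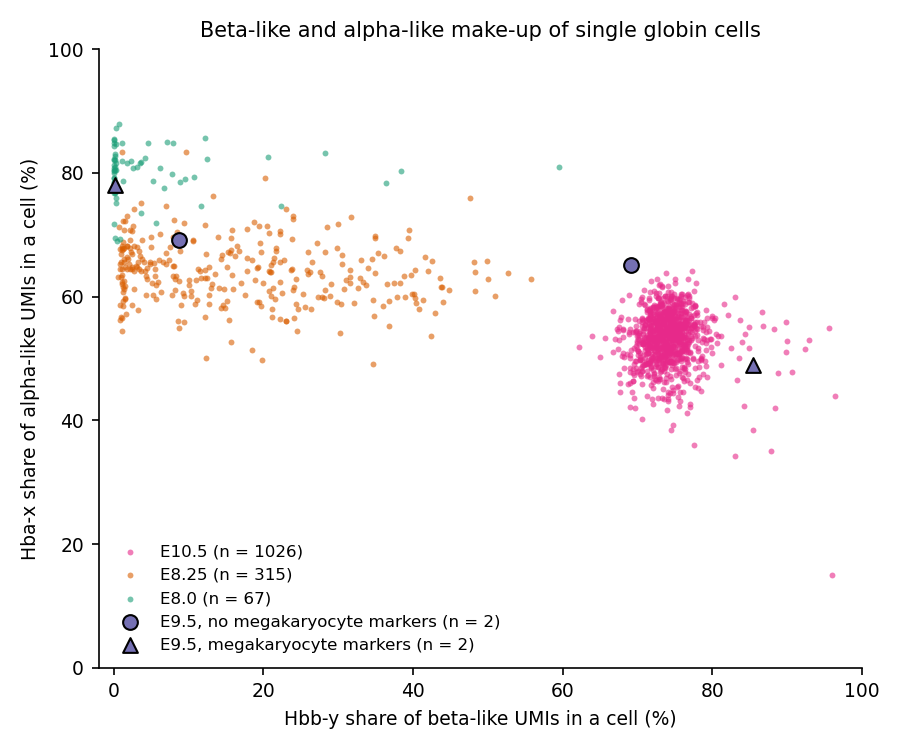
Each point is 1 globin cell, with the Hbb-y share of its beta-like UMIs (%) on the x axis and the Hba-x share of its alpha-like UMIs (%) on the y axis. The E8.25 cells spread along the x axis from 0.558 to 55.8% Hbb-y, the E10.5 cells form a group above 62%, and the 4 E9.5 cells are drawn large, with triangles for the 2 that carry megakaryocyte markers.

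As levels, Hba-x stood at 22791, 37360.02, 48430.3 and 79371 CPM in the order of stage. Hba-a1 stood at 5456, 21641, 23406 and 65589 CPM. Both were higher in the later libraries, Hba-a1 by 12.0-fold between E8.0 and E10.5 (interval 11.8 to 12.2) and Hba-x by 3.48-fold (3.45 to 3.51). Hba-a2 stood at 199.5, 37.2, 1196 and 2894 CPM, so that it made up 3.53, 0.171, 4.86 and 4.23% of the Hba-a1 plus Hba-a2 UMIs. The E8.25 library stood apart from the other 3 here, and it did so in its other cells as well (0.361%, against 10.6, 10.9 and 9.82% in the background of the E8.0, E9.5 and E10.5 libraries). The coding parts and promoters of Hba-a1 and Hba-a2 are near-identical, so the split of reads between them is uncertain. The sum of both was used for every ratio, but it does not restore reads that were not counted.

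The adult beta-globins Hbb-bs and Hbb-bt stayed minor in every library. Together they gave 1.02% of the beta-like UMIs at E8.0 (interval 0.951 to 1.10%), 1.17% at E8.25 (1.15 to 1.20%) and 0.624% at E10.5 (0.619 to 0.630%). Their ratio to Hbb-y plus Hbb-bh1 differed by -0.72 on the log2 scale between E10.5 and E8.0 (interval -0.82 to -0.61) and by 0.20 between E8.25 and E8.0 (0.09 to 0.31). Hbb-bs stood at 273, 579, 72.0 and 1689 CPM and Hbb-bt at 51.5, 63.5, 27.0 and 250.2 in the order of stage, so their levels were highest at E10.5 while their share was lowest among the 3 libraries with over 20 globin cells. The E9.5 values rest on 8 and 3 UMIs. In a single cell, Hbb-bs took at most 7.18% of the globin UMIs at E8.0, 7.44% at E8.25 and 3.60% at E10.5, and no globin cell had adult beta-globin as its main beta-like chain. These genes are also near-identical copies whose reads cannot be split with certainty, and the haplotype of the strain at this locus was not tested.

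The balance of the chains differed as well. Alpha-like UMIs stood to beta-like UMIs as 0.897 at E8.0 (interval 0.887 to 0.906), 1.08 at E8.25 (1.08 to 1.08) and 0.476 at E10.5 (0.476 to 0.477), a log2 difference of -0.91 between E10.5 and E8.0 (-0.93 to -0.90) and of 0.27 between E8.25 and E8.0. Single cells ranged from 0.421 to 1.53 at E8.0, from 0.473 to 1.78 at E8.25 and from 0.243 to 1.14 at E10.5, so the ranges overlapped. The medians were 0.869, 1.10 and 0.476.

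**Figure D3:**
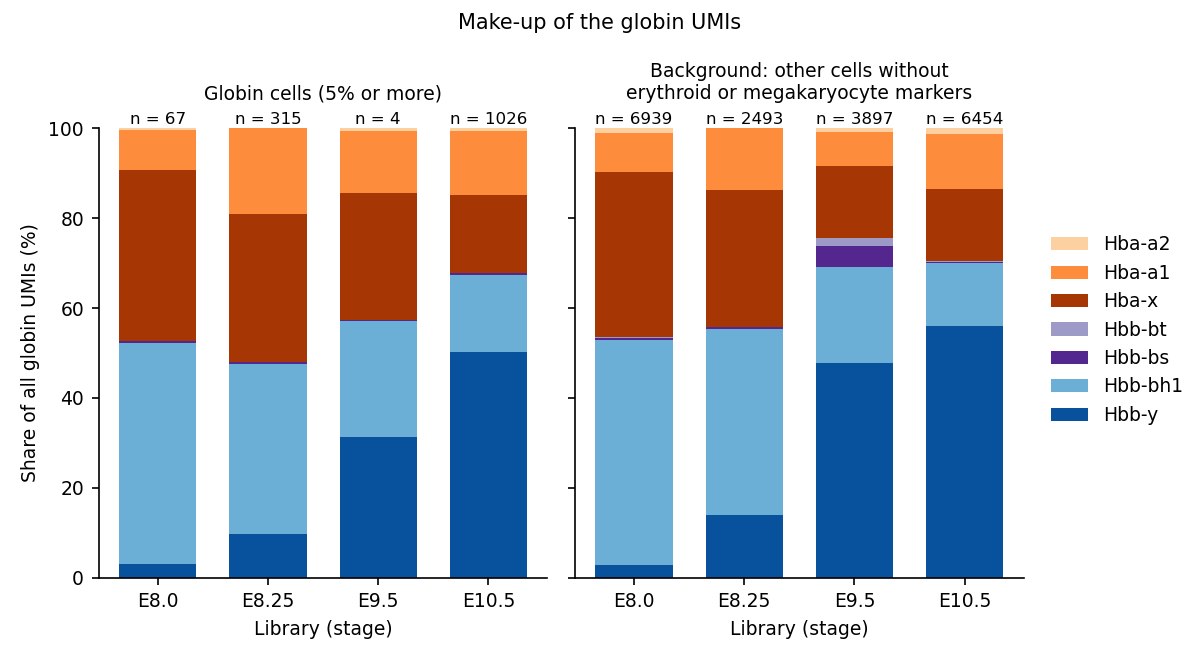
Share of all globin UMIs (%) taken by each of the 7 globins in the 4 libraries, in globin cells (left) and in other cells without erythroid or megakaryocyte markers (right), with the number of cells above each bar. Hbb-y (dark blue) takes 3.07% of globin UMIs in E8.0 globin cells and 50.3% at E10.5, and the background resembles the globin cells except at E9.5, where alpha-like UMIs are 24.4% of globin UMIs in the background and 42.7% in the 4 globin cells.

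Within a library, the make-up was followed over bins of globin share, in cells that carried at least 4 erythroid markers or passed the gate, without those carrying megakaryocyte markers. At E8.0, the 111 erythroid-marker cells below the gate held from 0.0159% globin upwards, and those below 0.2% are left out of the bins. Cells with less globin were dominated by Hbb-bh1. Its share of all globin UMIs was 89.6% in the bin from 0.2 to 0.5% (7 cells), 79.4% from 0.5 to 1% (4 cells), 71.0% from 1 to 2% (8 cells), 54.9% from 2 to 5% (83 cells) and 49.1% above 5% (67 cells). Hba-x ran the other way, from 4.46% through 16.0, 21.8 and 34.9 to 37.9%, and the ratio of alpha-like to beta-like UMIs was 0.0864, 0.253, 0.381, 0.753 and 0.897. Beta-like UMIs, nearly all Hbb-bh1, thus prevailed in the cells with least globin, although the first 3 bins hold fewer than 20 cells each. Between the 2 well filled bins the differences kept their direction. Among alpha-like UMIs, the Hba-x share differed little from the second bin on (79.3, 79.0, 81.3 and 80.1%).

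Other genes of the same E8.0 cells varied with the bins. Gata2, a factor of blood progenitors, stood at 60.0 CPM in the first bin and at 0.937 in the last, and Kit, the stem cell factor receptor, at 18.5 and 4.22. Hemgn, a nuclear protein of blood cells, stood at 4.62 and 67.0, and Alas2, which makes the first step of haem synthesis in red cells, at 32.3 and 189.8. The order was not kept in every bin, as in the second bin Kit stood at 46.3 and Hemgn and Alas2 at 0. Klf1, the Krüppel-like factor that activates globin and many other red cell genes, was at 203 in the first bin and 351 in the last. Gata1, the erythroid GATA factor, stood at 286 in the first bin and 172 in the last. Klf1, Gata1, Alas2 and Hemgn are among the 9 erythroid markers by which cells below the gate entered the bins. Their levels there are thus partly set by that choice. These few genes were picked from the lists. The first bin holds only 7 cells with 216584 non-globin UMIs, and the second bin 64725 such UMIs. The Hemgn and Kit levels of the first bin and the Kit level of the second thus rest on very few UMIs. The Gata2 level of the last bin rests on 2 UMIs.

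**Figure D4:**
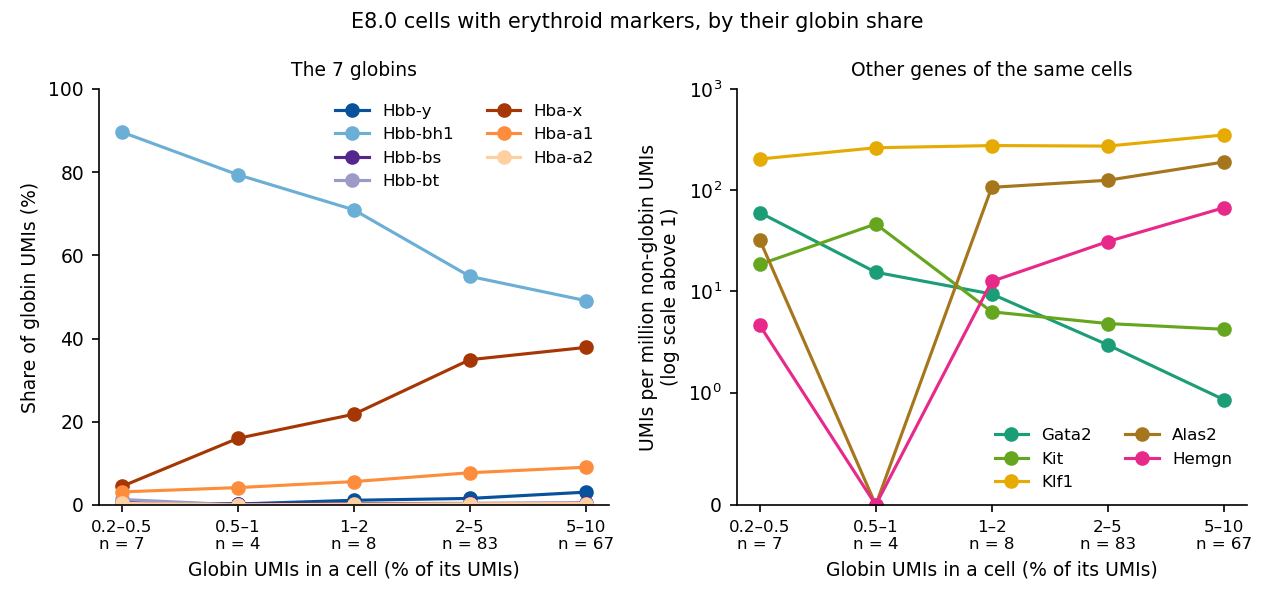
E8.0 cells with erythroid markers in 5 bins of their globin share (% of UMIs), with the number of cells under each bin. Left, the share of globin UMIs (%) of each globin, where Hbb-bh1 passes from 89.6 to 49.1% and Hba-x from 4.46 to 37.9%; right, the CPM of 5 other genes (log scale above 1), where the 0.5 to 1% bin rests on 4 cells.

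At E8.25, 86 cells with 5 to 10% globin and 229 with 10 to 20% differed mainly in Hbb-y, which gave 9.24% and 22.9% of the beta-like UMIs. The Hba-x share of alpha-like UMIs was 66.7% and 62.4%, and the ratio of alpha-like to beta-like UMIs 1.16 and 1.06. At E10.5 the Hbb-y share was nearly level over the bins: Hbb-y gave 73.2% of beta-like UMIs at 5 to 10% globin (6 cells), 73.6% at 10 to 20% (4 cells), 74.2% at 20 to 40% (110 cells) and 74.2% above 40% (906 cells). The Hba-x share of alpha-like UMIs varied more there, at 46.4, 52.8, 56.3 and 53.5% in the same bins. Cells of E8.0 and E8.25 both fell in the bin of 5 to 10% globin, but at different ends of it, with medians of 5.85% and 8.89%. There Hbb-y gave 5.83% of the beta-like UMIs at E8.0 and 9.24% at E8.25, Hba-x gave 80.1% and 66.7% of the alpha-like UMIs, and alpha-like to beta-like UMIs stood at 0.897 and 1.16. The globin share was thus not matched between these cells.

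Only 10 retained cells of the E9.5 library held 0.1% or more globin. The first held 13024 globin UMIs, 26.0% of its total, with Hbb-y at 4811, Hbb-bh1 at 2139, Hba-x at 3958, Hba-a1 at 2014 and Hba-a2 at 100 UMIs, and the second held 3273 (14.6%), with Hbb-y at 143, Hbb-bh1 at 1494, Hba-x at 1129 and Hba-a1 at 472 UMIs. Both carried 9 of 9 erythroid markers and no megakaryocyte marker, and their alpha-like shares of 46.6% and 49.8% were near those of the E8.0 and E8.25 globin cells (47.3% and 51.9% over all). One was Hbb-y-rich and the other Hbb-bh1-rich.

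The next 7 cells carried 5 or 6 of the 6 megakaryocyte markers, which belong to the platelet-forming lineage, together with 3 to 7 erythroid markers. Their globin was mostly beta-like. The third cell held 1446 globin UMIs, 77.9% of them beta-like, and the fourth 1250, 92.3% beta-like. The other 5 held between 59 and 415 globin UMIs, of which 94.2 to 100% were beta-like. In 3 of the 7 cells Hbb-y was the main globin (986, 244 and 250 UMIs) and in 4 it was Hbb-bh1 (1120, 218, 148 and 55 UMIs). The tenth cell carried 5 of 6 endothelial markers and no erythroid marker, with 5 Hbb-bs, 6 Hbb-bt and 2 Hbb-y UMIs and no other globin.

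Over all 22 cells with megakaryocyte markers at E9.5, alpha-like to beta-like UMIs stood at 0.128 (the 2 globin cells included), against 0.323 in the background of that library. This ratio rests on few cells. The 22 cells held 3967 globin UMIs with a median of 2 per cell, and the 2 globin cells gave 1446 and 1250 of them. Over the 6 such cells at E8.25 the ratio stood at 0.207, against 0.790 in the background of that library. Adult beta-globins gave 13.4% of the beta-like UMIs in those 6 cells at E8.25, against 1.17% in the globin cells, but 290 Hbb-bs UMIs came from only 2 of the 6 cells. At E10.5, 27 cells with megakaryocyte markers stood at 0.339, against 0.421 in the background, and held 5652 CPM of globin (interval 5465 to 5843) against 5058, so most of their globin could not be told from the background of that library.

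The level in the other cells differed widely between libraries. Over all other cells, globins stood at 876, 3156, 29.0 and 5077 CPM in the order of stage. These include cells below the gate that carry erythroid or megakaryocyte markers, such as 111 erythroid-marker cells in the E8.0 library at 31007 CPM and 20 megakaryocyte-marker cells in the E9.5 library at 2677 CPM. The marker gates were set after the data were seen, and the background described from here on leaves those cells out. In other cells without erythroid or megakaryocyte markers, globins stood at 126 CPM in the E8.0 library (interval 124 to 128), 3006 in E8.25 (2995 to 3018), 10.998 in E9.5 (10.2 to 11.8) and 5058 in E10.5 (5044 to 5072). At least 1 globin UMI was found in 89.1, 100, 15.1 and 100% of these cells in the order of stage, and in 48.4, 100, 4.70 and 100% after each cell was thinned to 5000 UMIs, which left out 23 shallower cells at E9.5. The order of the libraries followed that of the globin UMIs over all retained cells, which stood at 1764, 20758, 298 and 104521 CPM. At E8.25 and E10.5, every such cell thus held globin UMIs, whatever its class.

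Cell classes are set by markers, each cell being given to a class where it carried at least 4 of the markers (for cardiomyocytes at least 5 with at least 2 UMIs each). At E10.5 the level was 5055 CPM in endothelial-marker cells, 5072 in cardiomyocyte-marker cells, 5124 in macrophage-marker cells and 5055 in the remaining cells, and the intervals overlapped. At E8.25 it was 3036 in endothelial-marker cells, 2805 in cardiomyocyte-marker cells and 3010.4 in the remaining cells, the intervals of the second lying below those of the others. At E8.0 it was 129 in endothelial-marker, 118 in cardiomyocyte-marker and 126 in remaining cells. At E9.5, endothelial-marker cells stood apart with 43.7 CPM (37.1 to 51.2), against 8.89 in cardiomyocyte-marker cells and 9.24 in remaining cells.

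**Figure D5:**
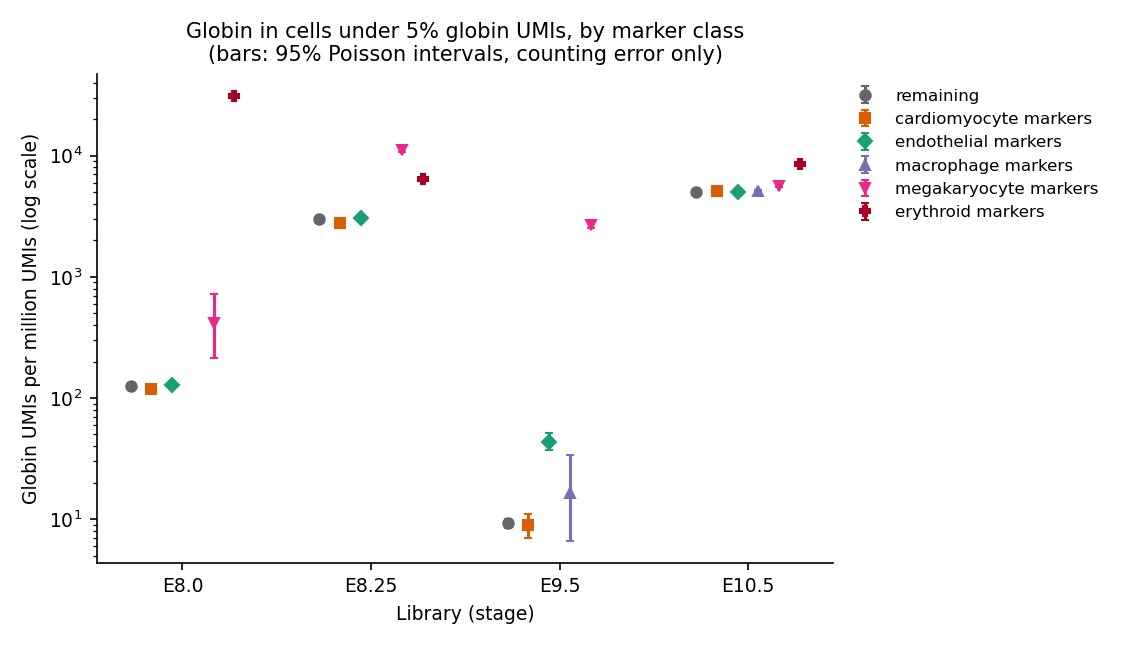
Globin CPM (log scale) in cells below the 5% gate, by library and marker class; bars are 95% Poisson intervals, and classes with no cell or no globin UMI in a library are left out. The classes without erythroid or megakaryocyte markers lie together near 126, 3006 and 5058 CPM at E8.0, E8.25 and E10.5, while at E9.5 the endothelial-marker cells lie at 43.7, above the remaining cells at 9.24.

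The background of the E8.0, E8.25 and E10.5 libraries was close to their globin cells in make-up but not equal to it. That of E9.5 was close to its 4 globin cells in the Hba-x share but not in the other measures below. Hbb-y gave 5.50% of the beta-like background UMIs at E8.0, 24.9% at E8.25 and 79.5% at E10.5, against 5.83, 20.3 and 74.2% in the globin cells. The Hba-x share of alpha-like UMIs was 79.2, 68.7 and 54.6%, against 80.1, 63.3 and 53.7%. Alpha-like to beta-like UMIs stood at 0.870, 0.790 and 0.421, against 0.897, 1.08 and 0.476, lower in the background of these 3 libraries. At E9.5 the same ratio was 0.323 in the background against 0.747 in the 4 globin cells. Hbb-bh1 gave 28.2% against 45.3% of beta-like UMIs there, and Hbb-bs with Hbb-bt gave 8.59% against 0.101%. Most of that 8.59% came from the 202 endothelial-marker cells, with 42 adult beta-globin UMIs and an adult share of 28.6%. The adult share was 7.55% in 477 cardiomyocyte-marker cells and 1.05% in 3203 remaining cells, each resting on 4 UMIs. The 9 erythroid markers summed to 30.8, 44.9, 9.28 and 41.2 CPM in all other cells. What made up the background was not tested.

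The E9.5 endothelial-marker cells, with a background low enough to see single transcripts, carried adult beta-globin. In 202 such cells Hbb-bs and Hbb-bt gave 42 UMIs, or 11.8 CPM (interval 8.49 to 15.9), against 0.456 (0.124 to 1.17) in 477 cardiomyocyte-marker cells and 0.0699 (0.0190 to 0.179) in 3203 remaining cells, at median depths of 17274, 17375 and 17171 UMIs. They were found in 14 of the 202 cells (6.93%), against 3 of 477 and 2 of 3203, and 1 cell held 11 of the 42 UMIs. Hbb-y also stood higher there, at 24.1 CPM (19.3 to 29.8) against 4.35 in the remaining cells. Hba-x was found in 1.49% of the endothelial-marker cells (0.307 to 4.28%) and in 3.03% of the remaining cells (2.46 to 3.68%), and these intervals overlapped. At E10.5 the adult beta-globin level of endothelial-marker cells was 25.7 CPM (22.1 to 29.7) against 21.04 (20.1 to 22.0) in the remaining cells, with 19 UMIs in 1 cell. At E8.0 and E8.25 the intervals of the 2 classes overlapped. Other sources of RNA in these cells were not tested.

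The remaining genes of the globin cells were compared with those of the other cells in edgeR's quasi-likelihood test, on counts summed per library and cell group in the 3 libraries with at least 20 globin cells, with the library as a block and the 7 globins left out. Of 14013 genes tested, 3328 were higher in globin cells (23.7%) and 4403 lower (31.4%) at a Benjamini-Hochberg adjusted p under 0.05. The scaling matters for this split: with library totals in place of TMM, 1201 were higher and 6747 lower, so 43.0% of calls were higher with TMM and 15.1% without TMM, and the median log2 difference of all genes passed from -0.15 to -0.73. The libraries are 3 different stages and the cell groups of each share embryos, so the test asks what held across these 3 libraries. Levels below are CPM over non-globin UMIs, given for E8.0, E8.25 and E10.5 in turn.

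Genes of haem synthesis and iron, which supply the pigment that globin chains carry, were nearly all higher: 17 of 18 were called higher and 1 lower, with a median log2 difference of 3.81. Alas2 stood at 189.8, 411 and 1471 in globin cells against 3.05, 8.51 and 9.04 in other cells (log2 difference 6.87 ± 0.43, SE, adjusted p = 1.39e-05). The mitochondrial iron importer Slc25a37 stood at 269.9, 253 and 1186 against 18.8, 15.6 and 17.6, and the endosomal iron reductase Steap3 at 26.7, 44.5 and 66.6 against 0.972, 1.37 and 1.11. The gene called lower was Hmox1, the haem-degrading oxygenase, at 4.22, 3.68 and 2.17 against 23.3, 19.2 and 21.4 (-2.16 ± 0.24, adjusted p = 1.70e-04), which was named after its value was seen.

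Among 17 genes of the red cell membrane and its skeleton, 15 were higher and none lower, with a median of 5.95. Among them were Ermap, an erythroid membrane protein (7.57), and Rhd, a Rhesus blood group antigen (7.05), the latter at 19.7, 37.9 and 313 in globin cells against 0.382, 0.653 and 1.69. Cd47 and the glucose transporter Slc2a1 passed in neither direction, and Slc2a1 was called lower by 0.53 without the E10.5 library (adjusted p = 4.25e-03). Among 8 genes of red cell metabolism and globin partners, 7 were higher and none lower (median 4.96), led by Hemgn (7.59), by the carbonic anhydrase gene Car2 (6.05) and by the biliverdin reductase gene Blvrb (5.86). Bnip3l passed in neither direction.

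All 11 erythroid transcription factors were called higher, with a median of 3.60. Klf1 stood at 351, 383 and 463 against 7.34, 7.12 and 4.96 (6.53 ± 0.29, adjusted p = 4.16e-06), Gata1 at 172, 142 and 138 against 5.25, 4.26 and 2.37, and Nfe2 at 56.2, 72.8 and 79.3 against 1.57, 2.16 and 2.06. The smallest difference, 0.51 for Ldb1, was -0.07 and not called without TMM, and it was lost in 7 further alternatives. In CPM, Ldb1 stood at 35.1, 38.46 and 31.5 against 33.5, 38.55 and 37.9, so it was higher at E8.0 only. Klf3 (0.88) stood at 22.0, 52.0 and 70.4 against 31.3, 31.6 and 49.4, so it was lower at E8.0. Of 6 progenitor genes, Runx1 was higher (2.93, adjusted p = 6.71e-03), at 39.4, 14.1 and 4.998 in globin cells against 2.98, 1.40 and 5.99 in other cells, which at E10.5 was not higher. Cd34, Etv2, Gata2 and Kit were lower, with log2 differences of -2.82 for Cd34 and -2.499 for Etv2.

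Regulators of globin switching, the factors and RNA-binding proteins known to set which globins are made, did not move together: 4 of 11 were higher, 3 lower and 4 in neither group, with a median of 0.11. Beside Klf1, the repressor gene Zbtb7a was higher (1.33, adjusted p = 0.0120), at 25.3, 17.7 and 84.8 in globin cells against 22.9, 14.6 and 25.2, and so was Mbd2, a reader of methylated DNA (1.17, adjusted p = 5.65e-03), although neither was called without TMM (adjusted p = 0.0660 and 0.0961). The maintenance methyltransferase gene Dnmt1 was called by a narrow margin (0.40, adjusted p = 0.0476) and turned to -0.18 without TMM (adjusted p = 0.361), its CPM being lower in globin cells in all 3 libraries (77.3, 58.4 and 73.4 against 82.7, 69.6 and 82.8).

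Sox6, a repressor of embryonic globin in definitive red cells, was lower (-3.03, adjusted p = 7.51e-04), with 0, 0.936 and 0.395 CPM in globin cells against 6.12, 6.92 and 7.29. Igf2bp1, an RNA-binding protein of the fetal programme, stood at 114, 113 and 25.0 against 215, 255 and 154 (-0.99, adjusted p = 0.0115). Nr2c1, a nuclear receptor that binds embryonic globin promoters, was lower by 0.95 (adjusted p = 0.0349), and the call was lost without E8.0 (adjusted p = 0.0648) and without E10.5 (0.129). Bcl11a, the repressor best known for silencing embryonic and fetal globins, was not called (-2.19, adjusted p = 0.0676): it stood at 0, 0.401 and 4.60 in globin cells against 0.449, 0.113 and 64.9, and was called lower without E8.0 (adjusted p = 0.0149) and without E8.25 (2.05e-08). Myb, Nr2c2 and Lin28b were not called, with Myb at 7.03, 0.936 and 0.131 in globin cells against 0.911, 0.765 and 2.06, and called higher by 1.95 without E10.5 (adjusted p = 1.27e-03).

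Of the other globin genes, 4 were measured in the test. Hbq1b, a theta-globin gene of the alpha-like cluster, stood at 17.3, 33.5 and 138 CPM in globin cells against 0.248, 0.315 and 0.513 (7.66, adjusted p = 1.13e-05). Hbq1a stood at 1.41, 0.602 and 4.54 against 0.0134, 0.0113 and 0.0201 (7.499, adjusted p = 1.00e-04), and Hbb-bh2, a further gene of the beta-like cluster, at 1.87, 1.20 and 3.55 against 0.0670, 0.0225 and 0.0101 (6.63, adjusted p = 2.56e-04). Both are low next to the members. Cygb, which encodes cytoglobin of non-blood cells, was lower (-2.96, adjusted p = 5.06e-03), at 0, 0.201 and 0.263 against 1.21, 0.968 and 5.49.

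Between stages the same lists were described within globin cells, with no test, as the number of genes at least 2-fold different on the log2(CPM + 5) scale between E10.5 and E8.0 among the 4613 genes at 20 CPM or more in either library. Over all those genes 332 (7.2%) were higher and 452 (9.8%) lower, with a median of -0.22. Of 17 genes of haem synthesis and iron, 11 were higher and none lower, and so were 11 of 17 of membrane and skeleton and 6 of 8 of metabolism and partners, with medians of 1.18, 1.75 and 1.25. Erythroid transcription factors did not share this shift, with 2 of 11 higher (Lyl1 and Klf3) and 2 lower (Lmo2 and Cbfa2t3), and Klf1 and Gata1 differing by 0.39 and -0.31. Of 4 measured switching regulators, Zbtb7a was higher, at 84.8 against 25.3, and Igf2bp1 lower, at 25.0 against 114. Most measured genes of the haem, membrane and metabolism lists were thus more abundant per non-globin UMI in the E10.5 globin cells. The median globin share there was 46.1% against 5.85% at E8.0.

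The genes most alike to the summed globins were sought over 22 groups of at least 10 cells, formed by library and cell class, among 4939 genes at 50 CPM or more in at least 1 group. By Pearson's r of log2(CPM + 10), these were Alas2 (0.83), the metallothionein gene Mt2 (0.82), Blvrb (0.81), Ybx3 (0.81), a cold-shock-domain protein, and the ribosomal protein gene Rpl17 (0.81). The 22 groups share 4 libraries, and the globin level of most of them is the background of their library, so these values describe the libraries as much as the cells.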

How the data were processed

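Cells of the Mesp1 lineage were profiled by droplet sequencing (10x Genomics Single Cell 3' kit v2) in 4 libraries, 1 per stage. The authors aligned reads to mm10 with Cell Ranger (version 3.1.0 per the submitters' processing notes) and deposited unnormalized UMI counts per gene and cell, limited to barcodes called as cells. Reads that map equally to several genes are not counted by this tool, which lowers near-identical globin copies.

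Cells with at least 1000 genes and at most 10% mitochondrial UMIs were retained, and the highest Scrublet scores (scanpy 1.11.5) were removed at 0.8% per 1000 cells. Globin cells had at least 5% globin UMIs. Shares and levels were computed from summed counts (Python 3.11.15, numpy 2.4.6, scipy 1.17.1, pandas 2.3.3, matplotlib 3.10.9) with 95% intervals for counting error only. Depth ranged from 70599266 to 151615964 UMIs per library. Globin and other cells were compared with edgeR 4.0.16 (R 4.3.3, TMM, filterByExpr, library block, adjusted p under 0.05) and, as an alternative, DESeq2 1.42.0, and the script was tested on simulated data. SE values were derived from the F statistic. Named genes were the members, the 3 genes of each list with the largest called difference, all switching regulators and other globins, and the 5 most alike genes, of which 1 list gene is not reported here. The marker gates for cell classes were set after the data were seen. Members, lists and tests were chosen with earlier results of these data known. Gene positions and promoters are from RefSeq (GRCm38.p6, the assembly of mm10). The alternatives were other gates, all deposited cells, equal weight per cell, background subtraction and other fits.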

Additional observations from a re-analysis of the deposited data

How the results depend on the processing

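Log2 differences between E10.5 and E8.0 kept their sign under every alternative that gave a value. With a gate of 1%, which takes in E8.0 cells with less globin, the difference was -1.84 for Hba-x to Hba-a1 plus Hba-a2 (-1.80 in the report), -6.01 for Hbb-bh1 to Hbb-y (-5.56) and -0.78 for alpha-like to beta-like UMIs (-0.91). With each cell given the same weight it was -5.66 for Hbb-bh1 to Hbb-y and -0.89 for alpha-like to beta-like UMIs, and with all deposited cells -5.61 for Hbb-bh1 to Hbb-y. Background subtraction, and the remaining alternatives of these 4 ratios, stayed within the counting intervals. Globin CPM in the other cells differed by 2.54, but by 5.21 with cells under 1% globin, 1.59 under 20%, 5.33 without cells carrying erythroid markers, 5.33 without erythroid or megakaryocyte markers (added after seeing the data) and 5.39 as a median over cells. The cause was not tested, but 91 E8.0 cells held between 1% and 5% globin. A gate of 20% gave no ratio, because E8.0 and E8.25 have no such cell, and the test could not be fitted with it.

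The 7731 genes called between globin and other cells were 7050 with DESeq2, 7499 without the filter, 5257 without the library block, 7567 with the globins kept, 7533 without other cells carrying erythroid markers, 7948 without TMM (added after seeing the data) and 5309 to 7168 with 1 library left out. Of 666 values for 74 list genes, 623 kept direction and call. Without TMM, Ldb1 was at -0.073 and Dnmt1 at -0.18. Slc2a1 was at -0.53 without E10.5 and at 0.70 without E8.0. No paired analysis was possible because each stage is 1 library, beyond the library block in the test.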

Other observations

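The Tmem14c gene, which encodes a mitochondrial porphyrin transporter of red cells and was picked after its values were seen, stood lower in the E8.25 library than in its neighbours in both cell groups. It stood at 359, 133 and 1679 CPM in globin cells of the E8.0, E8.25 and E10.5 libraries and at 83.6, 23.3 and 152 CPM in the other cells. Alad (1172, 2032 and 3339 CPM) and Fech (122, 294 and 711 CPM) stood in the order of stage in globin cells, whereas Cpox was highest at E8.25 (468, 775 and 751 CPM). Slc25a37 (269.9, 253 and 1186 CPM), Slc11a2 (28.6, 26.6 and 42.2) and Slc25a38 (44.5, 43.0 and 62.0) were lowest at E8.25, but only slightly below E8.0. The E8.0 values of Slc11a2 and Slc25a38 rest on 61 and 95 UMIs.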
